A study of Mus musculus with 111 samples.

Results

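Microglia sorted from the striatum of wild-type (WT) mice were compared between 12 and 6 months of age. The samples were chosen by their titles, which give genotype, sorted fraction and age, and made 4 arrays at 12 months and 4 at 6 months, 8 of the 111 arrays of the series. Microglia were the cells that carried the surface protein CD11b and lacked GLT1, the glutamate transporter of astrocytes. Litter mates' striata were combined by genotype before sorting, and the labels name no separate animals, so p-values measure the spread between such pools, which may in part be technical. These WT mice were the controls of zQ175 mice, a knock-in model of Huntington's disease with an expanded repeat in the mouse's own Htt gene (labelled Q175). The zQ175 microglia of the same ages (4 arrays at each age) entered the same fit. WT astrocytes (GLT1-positive, CD11b-negative) and a WT fraction negative for both markers, again 4 arrays at each age, served to compare fractions. The age change within each of these fractions was fitted together with the zQ175 arrays of the same fraction (4 arrays at each age). WT arrays at 6 and 12 weeks, the controls of the R6/2 mice of the series, served to sort genes by the fraction they are highest in. The sources used here do not give sex, strain, zygosity or the number of mice per pool.

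Levels are log2 expression values as deposited, given as mean ± SD over the 4 arrays of an age. A log2 fold change is the 12-month minus the 6-month mean and carries ± its standard error. Genes are called where the p from limma, adjusted by the Benjamini-Hochberg method over the 12201 genes tested, was below 0.05. Sample numbers are those of the labels, 22 to 25 at 6 months and 34 to 37 at 12 months.

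Microglia are the resident macrophages of the brain. Their survival depends on signalling through the receptor CSF1R, and in the undisturbed brain they express a set of surface proteins, among them P2RY12, TMEM119 and CX3CR1, that set them apart from other macrophages. Around amyloid, in demyelination and in old age, some of them take on a state with high expression of Apoe, Lpl, Cst7, Itgax and other genes of lipid handling, which depends in part on the lipid receptor TREM2, and the brain's interferon response is also known to rise with age.

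The microglia markers were at the same high level at both ages. The mean of 22 homeostatic microglia genes was 12.66 ± 0.06 at 12 months and 12.67 ± 0.03 at 6 months, and their range was 12.61 to 12.75 against 12.64 to 12.70. Tmem119, a surface protein of microglia, was at 13.09, 13.08, 13.12 and 13.15 in samples 34 to 37 and at 13.01, 12.76, 13.03 and 13.16 in samples 22 to 25, so the ages overlapped. Trem2 was at 13.04 ± 0.05 and 12.98 ± 0.10, and Csf1r at 13.65 ± 0.05 and 13.60 ± 0.16. The astrocyte transporter Slc1a2 was lower, at 9.34 ± 0.74 and 9.21 ± 0.29. Xist lay between 3.901 and 5.846 on all 8 arrays, and the Y-linked gene Eif2s3y was at 11.21 ± 0.05 and 11.16 ± 0.21.

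Arrays of the same age correlated at 0.979 to 0.9903 over genes, and arrays of different ages at 0.969 to 0.988. The bacterial control bioB, a hybridisation control added to every array, ran from 10.29 to 10.71 at 12 months and from 9.77 to 9.93 at 6 months. It also differed without overlap in zQ175 microglia, with 10.16 to 10.37 against 9.75 to 9.88. The same held in WT astrocytes (10.12 to 10.43 against 9.63 to 9.78) and in the WT negative fraction (9.79 to 10.16 against 9.29 to 9.61). No scan date or batch is given in the sources used here, so array handling and age cannot be told apart.

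From 6 to 12 months, 951 genes changed in WT microglia, of which 232 rose and 719 fell. That is 7.79% of the genes tested, 1.9% for rises and 5.89% for falls. The median change over all genes tested was -0.01 on the log2 scale. The falls were also larger: 198 of them (1.62% of genes tested) and 23 of the rises (0.189%) were over 2-fold. Every 12-month array lay above every 6-month array for 562 genes (4.61%) and below for 1201 genes (9.84%). When the mean of a gene's probe sets stood for it, 272 genes rose and 404 fell, with 11522 genes tested. In a fit that added the WT and R6/2 microglia of 6 and 12 weeks 458 rose and 663 fell. Of the 951 genes, 457 were called with the probe set mean and 673 in the fit with the weeks. The count rested on the shared estimate of the spread: with the 8 WT arrays alone, 8 genes were called (Cobll1, Elovl7, Fabp4, Gng11, Ifngr2, Npff, Plekhg1 and Znrf3), while 2730 had an unadjusted p below 0.05, against 3093 in the fit with zQ175. Leaving out 1 WT sample gave between 268 calls (without sample 23) and 1508 (without sample 25). It gave 354 without sample 22, 346 without sample 24, 460 without sample 34 and 436 without sample 36.

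Most of the large falls were in genes that microglia express at a lower level than the other sorted cells. Genes were classed by the WT arrays at 6 and 12 weeks, which enter no comparison of months: 1603 genes were at least 1 log2 unit higher in microglia than in both other fractions, 2851 were at least 1 unit lower than in the higher of them, and 7747 lay between. Among the 2851 genes low in microglia, 323 fell (11.3%) and 32 rose, with a median change of -0.15. Among the 1603 genes high in microglia, 32 fell (2%) and 40 rose (2.5%), with a median of 0.08. Of the 198 falls over 2-fold, 182 were in the class low in microglia and 6 in the class high in it. The classes were set after values of these data had been seen.

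**Figure D1:**
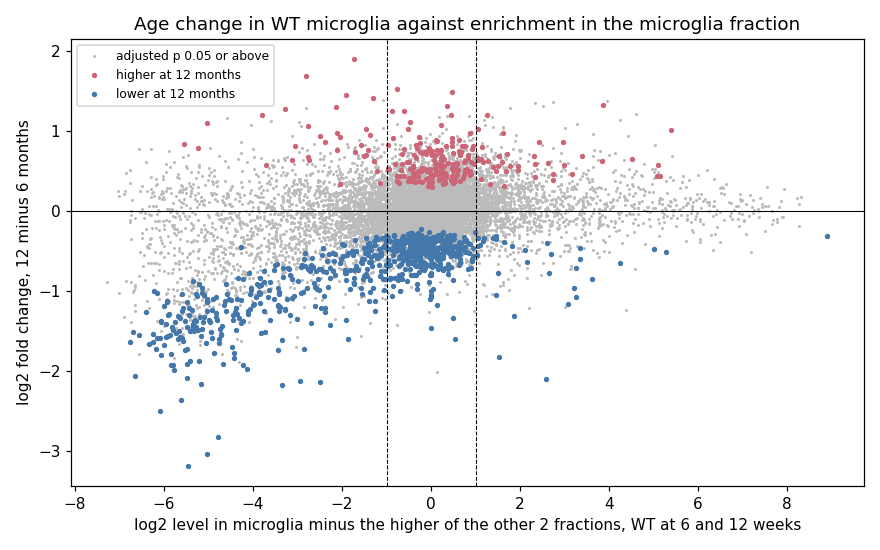
Each point is 1 of the 12201 genes tested. The horizontal axis is its log2 level in WT microglia minus that in the higher of the other fractions at 6 and 12 weeks, the vertical axis its log2 fold change from 6 to 12 months in WT microglia, and coloured points are the 232 called rises and 719 called falls, of which the large falls lie mostly at the left, among genes low in microglia (dashed lines at 1 unit).

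The clearest rise among genes of lipid handling was that of Apoe, which encodes apolipoprotein E, the main lipid carrier of the brain. Apoe was at 11.80, 11.85, 12.13 and 11.72 in the 12-month samples 34 to 37 and at 10.78, 11.25, 10.88 and 10.90 in the 6-month samples 22 to 25, and each older pool lay above each younger one. Its log2 fold change was 0.92 ± 0.15, or 1.90-fold (adjusted p = 0.00684), and the call held without each of the 8 samples in turn (highest adjusted p 0.0276). Apoe belongs to the class of genes lower in microglia than in another fraction, and border macrophage markers, whose part in this change was not tested, had a mean of 8.43 ± 0.27 at 12 months and 7.99 ± 0.13 at 6 months. Lpl, the lipoprotein lipase that frees fatty acids from lipoproteins, rose by 0.62 ± 0.13 (adjusted p = 0.0142), from 11.41, 11.44, 11.08 and 11.26 to 11.61, 12.06, 11.98 and 12.03. Its lowest 12-month value, in sample 34, was above the highest 6-month value, and its call too held without each sample. Ch25h makes 25-hydroxycholesterol, an oxysterol with roles in immunity. It rose by 1.49 ± 0.38 (2.80-fold, adjusted p = 0.0305), from 7.42, 5.91, 6.91 and 6.93 to 8.23, 8.05, 8.14 and 8.69. Its groups did not overlap, yet without any 1 of samples 23, 24, 34, 36 and 37 its adjusted p rose above the threshold, up to 0.0933.

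Apoe, Lpl and Ch25h were the 3 genes called among the 25 measured members of a list of disease-associated microglia genes. Among all genes tested, 1.9% were called higher. None of the 25 fell, and 5 did not overlap upward and 2 downward, where 4.61% and 9.84% of all genes tested did so. The list's median was 0.09, against -0.01 over all genes tested. Several other members had positive values that did not pass the test: 0.62 ± 0.21 for Cst7, a cysteine protease inhibitor (adjusted p = 0.078), 0.70 ± 0.23 for Itgax, an integrin chain (0.069), 0.68 ± 0.23 for Igf1, a growth factor, and 0.64 ± 0.25 for Axl, a phagocytic receptor. Cst7 was at 10.03, 10.17, 10.38 and 10.58 against 9.62, 9.95, 9.66 and 9.43, which do not overlap, while Itgax was at 9.75, 9.46, 9.98 and 10.46 against 8.84, 9.44, 9.06 and 9.5, which do. Other genes of the list had values near 0: Tyrobp, the adaptor of TREM2, at 0.03, Cd68 at 0.01 and Ctsd at 0.03. Fabp5, a fatty acid-binding protein, had a value of -0.47 ± 0.15 (adjusted p = 0.066).

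Genes of lipid synthesis and breakdown moved in both directions. Of 21 measured genes of lipid transport and fatty acid metabolism, Apoe, Lpl and Ch25h rose, while Scd1, Scd2 and Cpt1a fell, and the median was -0.06. Among all genes tested, 1.9% were called higher and 5.89% lower. Scd1, a desaturase that makes monounsaturated fatty acids, was at 9.70, 11.14, 10.69 and 10.81 at 12 months against 11.53, 11.60, 11.74 and 11.43 at 6 months, a change of -0.99 ± 0.24 (adjusted p = 0.0235) with its lowest value in sample 34. Scd2 fell by 0.40 on the log2 scale (± 0.09, adjusted p = 0.0207), from 12.66 ± 0.11 to 12.27 ± 0.17. Cpt1a, which imports fatty acids into mitochondria for oxidation, had a change of -0.69 ± 0.19 (adjusted p = 0.0419) with overlap between the ages. The calls of Scd1 and Scd2 were lost without any 1 of samples 22, 23 and 24 (adjusted p up to 0.0689 and 0.0646), and that of Scd2 also without sample 34. That of Cpt1a was lost without sample 22, 23, 24, 34 or 36 (up to 0.119). None of 20 cholesterol synthesis genes was called, but 6 lay without overlap lower at 12 months and none higher (9.84% and 4.61% of all genes tested), with a median of -0.28. Scd1 and Scd2 are also abundant in oligodendrocytes, whose markers were lower at 12 months in the same arrays (mean 10.17 ± 0.75 against 11.11 ± 0.14). The part of oligodendrocyte RNA in these 2 changes was not tested.

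Ifngr2, the signalling chain of the interferon-gamma receptor, had the smallest p of all rises. It was at 10.95, 10.74, 10.60 and 10.83 at 12 months and at 9.87, 9.84, 9.97 and 10.01 at 6 months. The gap between the ages was wider than the spread within either, and the change was 0.86 ± 0.10, or 1.81-fold (adjusted p = 0.0055). It held under each omission of a sample and was among the 8 calls of the WT arrays alone. The change of Ifngr2 was 0.78 in WT astrocytes (adjusted p = 0.00755) and 0.76 in the WT negative fraction, so it was not confined to microglia. Of 24 interferon-stimulated genes, which lie downstream of this and other interferon receptors, none rose and 1 fell (Ddx58, an RNA sensor, -0.36 ± 0.10), with a median of 0.05. These counts are near the shares over all genes tested, 1.9% called higher and 5.89% called lower. Oas1a at 0.48 ± 0.19, Oasl2 at 0.46 ± 0.27 and Irf7 at 0.27 ± 0.15 did not pass the test. Ddx58 overlapped between the ages and lost its call without any 1 of samples 22, 23, 24, 34, 35 and 36, with adjusted p up to 0.121.

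Other immune genes high in microglia rose by smaller steps. Cxcl16, a membrane-bound chemokine, was at 11.53, 11.58, 11.60 and 11.61 at 12 months against 11.14, 11.05, 10.91 and 11.45, a change of 0.44 ± 0.10 (adjusted p = 0.0219). Cd22, an inhibitory sialic acid receptor known to rise in old microglia, rose by 0.81 ± 0.22 (adjusted p = 0.0372), from 8.98 ± 0.29 to 9.78 ± 0.39. Tlr12, an endosomal receptor for a parasite protein, rose by 0.60 ± 0.15 and Arhgap9 by 0.62 ± 0.13, a pair chosen after their values were seen. The leave-one-out losses differed: Arhgap9 lost its call without sample 23 alone (adjusted p 0.0517), Cxcl16 without any 1 of 4 samples (22, 23, 24 and 36, up to 0.0695), Cd22 without any 1 of 5 (22, 23, 24, 36 and 37, up to 0.105) and Tlr12 without those or sample 34 (up to 0.0929). Fkbp5, a chaperone induced by glucocorticoids, rose by 0.68 ± 0.17 (adjusted p = 0.0296) and lost its call without any 1 of samples 22, 23, 24, 35 and 36 (up to 0.0861). It was the 1 called gene of 19 glucocorticoid-induced genes (7.79% of all genes tested were called).

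**Figure D2:**
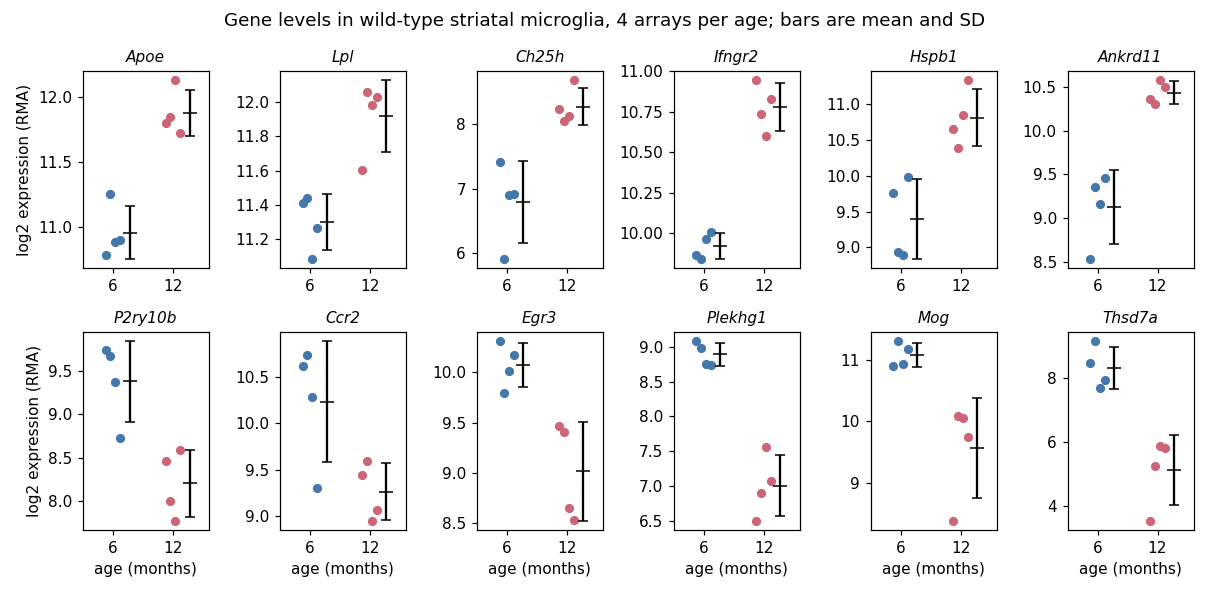
Log2 expression of 12 genes on each of the 8 WT microglia arrays, by age in months, with the mean and SD of each age as bars. The 6 genes of the upper row rose and those of the lower row fell, and in each panel but that of Ccr2 the 4 arrays of 1 age lie apart from the 4 of the other.

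Among the genes with the largest rises were some with low levels. Wdr38, which encodes a WD-repeat protein, rose the most, by 1.90 ± 0.29 (adjusted p = 0.00597), from 6.14, 5.24, 5.93 and 6.75 to 8.09, 8.10, 7.72 and 7.73. Cfp, which encodes properdin, the stabiliser of the alternative complement pathway, rose by 1.68 ± 0.43 from 5.36 ± 1.07 to 7.04 ± 0.30. It was the 1 called gene of 10 complement genes (7.79% of all genes tested were called). Lif, a cytokine of the interleukin-6 family, rose by 1.52 ± 0.43 from 4.79 ± 0.76, a 6-month level below 5.4, the minimum that a gene's mean over the 16 arrays of the fit had to reach for testing. Rab7b, a small GTPase of late endosomes, rose by 1.44 ± 0.30 (adjusted p = 0.0151), from 7.44, 7.94, 7.15 and 7.82 to 9.88, 8.87, 8.62 and 8.75. Dennd1c, an exchange factor for the GTPase Rab35, rose by 1.33 ± 0.29, Trpc2 by 1.25 ± 0.26 and Slc9a5, a sodium-proton exchanger, by 1.24 ± 0.35. Wdr38 and Rab7b held their calls without each sample. Cfp lost its call without any 1 of samples 23, 24, 34, 35 and 36 (up to 0.088). Lif was called in 1 of the 6 omissions in which it passed the filter (without sample 35), and its adjusted p was up to 0.127 without sample 22, 23, 24, 25 or 36. Dennd1c lost its call without sample 23 or 34 (up to 0.0593), Trpc2 without sample 23 (0.0521) and Slc9a5 without any 1 of 7 samples (all but 25, up to 0.121).

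Ankrd11, a chromatin regulator that recruits histone deacetylases, rose by 1.30 ± 0.18 (2.47-fold, adjusted p = 0.00597), from 8.53, 9.36, 9.17 and 9.46 to 10.36, 10.30, 10.58 and 10.50. Acin1, a splicing-associated protein, rose by 1.20 ± 0.18 and Son, which organises nuclear speckles, by 0.50 ± 0.10. Luc7l3 and Luc7l, relatives of a yeast splicing factor, rose by 0.51 ± 0.12 and 0.92 ± 0.25. Ankrd11, Acin1 and Son were called without each of the samples in turn, Luc7l3 was not called without sample 23 or 34 (up to 0.0595), and Luc7l was not called without any 1 of 6 samples (22, 23, 24, 34, 35 and 36, up to 0.118). Acin1, Son, Luc7l3 and Luc7l were chosen after their values were seen. Ankrd11 rose by a like amount in WT astrocytes (1.18, adjusted p = 0.00138) and in zQ175 microglia (1.19, adjusted p = 0.00227), so its change was not confined to WT microglia. Among the genes with the smallest p were also Chst1, a sulfotransferase of keratan sulfate (0.67 ± 0.10), Rnf126, a ubiquitin ligase (0.88 ± 0.13), and Tsfm, a mitochondrial translation factor (0.75 ± 0.11), each at an adjusted p of 0.00597. The change of Chst1 was 1.06 in the WT negative fraction and 0.30 in WT astrocytes.

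Hspb1, the small heat shock protein HSP27, was at 10.66, 10.39, 10.85 and 11.34 at 12 months and at 9.76, 8.94, 8.89 and 9.98 at 6 months, a rise of 1.41 ± 0.39 (2.67-fold, adjusted p = 0.0414). Stip1, which bridges HSP70 and HSP90, rose by 0.78 ± 0.14 (adjusted p = 0.00914), from 10.004, 9.74, 9.77 and 10.08 to 10.57, 10.66, 10.87 and 10.62. Ahsa1, an activator of the HSP90 ATPase, rose by 0.46 ± 0.11 and Fkbp4, an HSP90 co-chaperone of steroid receptors, by 0.61 ± 0.15, with overlap between the ages for Fkbp4. Stip1 held its call without each sample. Hspb1 lost it without any 1 of samples 22, 23, 24, 34, 36 and 37 (up to 0.118), Fkbp4 without any 1 of 22, 23, 24, 36 and 37 (up to 0.0814) and Ahsa1 without any 1 of 23, 24 and 36 (up to 0.0754). Stip1, Ahsa1 and Fkbp4 were chosen after their values were seen. On the list of 24 heat shock and unfolded protein genes, 2 rose (Hspb1 and Pdia6, 0.50 ± 0.14) and 1 fell (Pdia4, -0.71 ± 0.15), with a median of 0.15, and both Pdia genes encode disulfide isomerases of the endoplasmic reticulum. Over all genes tested, the shares called higher and lower were 1.9% and 5.89%.

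The upstream sequences of these 4 genes and of Ch25h are shown because the 4 chaperone and co-chaperone genes, 3 of them picked after their values were seen, were each called higher and because Ch25h had the largest rise among the lipid genes. They are the 250 bases before the RefSeq start of each gene on its own strand (build GRCm38.p6), in lower case, with matches to 4 motifs on either strand in capitals. The RefSeq table held a start for 99 of the 131 genes followed here. The motifs were both arrangements of paired heat shock half-sites, GAANNTTC (in 6.69% of 32851 such windows) and TTCNNGAA (7.17%), the cyclic AMP response element TGACGTCA (1.55%) and the TATA box TATAAA (12.4%). GAANNTTC and TTCNNGAA can overlap where half-sites follow each other.
Hspb1, chr5:135887669-135887918, plus strand: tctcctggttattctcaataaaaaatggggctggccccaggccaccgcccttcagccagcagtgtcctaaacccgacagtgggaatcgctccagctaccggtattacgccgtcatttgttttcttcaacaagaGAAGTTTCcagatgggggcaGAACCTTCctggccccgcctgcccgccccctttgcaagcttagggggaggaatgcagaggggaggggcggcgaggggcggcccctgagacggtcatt
Fkbp4, chr6:128438657-128438906, minus strand: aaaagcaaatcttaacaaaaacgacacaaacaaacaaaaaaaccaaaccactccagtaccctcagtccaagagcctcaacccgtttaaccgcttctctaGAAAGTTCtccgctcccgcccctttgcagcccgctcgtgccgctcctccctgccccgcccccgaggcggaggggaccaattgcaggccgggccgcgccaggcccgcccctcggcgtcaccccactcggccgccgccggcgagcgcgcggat
Stip1, chr19:7040027-7040276, minus strand: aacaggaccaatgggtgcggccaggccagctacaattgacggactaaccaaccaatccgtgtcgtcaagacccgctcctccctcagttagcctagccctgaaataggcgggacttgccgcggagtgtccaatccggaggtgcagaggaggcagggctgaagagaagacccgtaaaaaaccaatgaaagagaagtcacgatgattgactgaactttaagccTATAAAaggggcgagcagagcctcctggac
Ahsa1, chr12:87266478-87266727, plus strand: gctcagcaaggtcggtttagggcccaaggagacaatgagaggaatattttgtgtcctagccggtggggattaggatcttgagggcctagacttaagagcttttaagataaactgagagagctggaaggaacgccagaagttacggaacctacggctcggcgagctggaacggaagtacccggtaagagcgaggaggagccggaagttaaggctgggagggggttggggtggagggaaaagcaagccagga
Ch25h, chr19:34475149-34475398, minus strand: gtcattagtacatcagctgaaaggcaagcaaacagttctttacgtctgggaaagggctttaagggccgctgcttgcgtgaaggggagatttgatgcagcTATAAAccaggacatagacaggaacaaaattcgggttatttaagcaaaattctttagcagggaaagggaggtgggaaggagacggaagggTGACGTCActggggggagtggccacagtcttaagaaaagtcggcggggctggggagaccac
Hspb1 held 2 matches to GAANNTTC and Fkbp4 held 1. Stip1 held a TATA box, Ahsa1 held no match to the 4 motifs in this window, and Ch25h held a TATA box and a cyclic AMP response element. These matches are a description of the letters, and binding was not measured.

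Genes high in microglia that fell were fewer and included receptors of immune cells. P2ry10b, a receptor of the P2Y-like family found on immune cells, was at 8.46, 8.0045, 7.78 and 8.58 at 12 months and at 9.73, 9.67, 9.37 and 8.73 at 6 months. It fell by 1.17 on the log2 scale (± 0.22, adjusted p = 0.00997), with a call that held without each sample. Egr3, an activity-induced transcription factor, was at 9.47, 9.41, 8.65 and 8.54 against 10.31, 9.80, 10.01 and 10.17, a change of -1.06 ± 0.25 (adjusted p = 0.0219). It was the 1 called gene of 25 immediate early genes, where 5.89% of all genes tested were called lower, and 5 of the 25 lay without overlap lower (9.84% of all genes) and none higher. Ccr2, the chemokine receptor of inflammatory monocytes, was at 9.44, 9.59, 8.95 and 9.06 against 10.61, 10.74, 10.28 and 9.30, which overlap through sample 25, a change of -0.97 ± 0.28 (adjusted p = 0.0484). Klrd1, a receptor of natural killer cells, changed by -0.78 ± 0.19, and Il7r, the interleukin-7 receptor, by -0.54 ± 0.14. The calls of Egr3 (up to 0.0655), Ccr2 (up to 0.143), Klrd1 (up to 0.0762) and Il7r (up to 0.0941) were each lost without sample 24 or 36. They were also lost without sample 22 or 37 for Egr3, without 22, 23, 34 or 37 for Ccr2, without 23 or 37 for Klrd1, and without 22, 23, 34 or 35 for Il7r. P2ry10b and Il7r were chosen after their values were seen.

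Ccr2 and Klrd1 are also markers of monocytes and of lymphocytes. The mean of 16 monocyte and neutrophil genes ran from 9.28 to 9.85 at 12 months and from 8.72 to 10.12 at 6 months, and that of 16 lymphocyte genes from 6.10 to 6.44 and from 6.32 to 7.67. Their part in the changes of Ccr2 and Klrd1 was not tested. In bulk samples, fewer cells of a type and less RNA per cell cannot be told apart. Border macrophage markers, genes of the macrophages of meninges and vessels such as Lyve1 and Cd163, ran from 8.22 to 8.81 at 12 months and from 7.83 to 8.11 at 6 months, which do not overlap, while none of the 14 tested passed the test.

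Other microglial falls covered lipid, vesicle and enzyme genes. Fabp4, a fatty acid-binding protein, changed by -1.82 ± 0.42 (adjusted p = 0.0204) to a 12-month mean of 4.98, near the dim end of the arrays, and Camk2b, a subunit of calcium/calmodulin-dependent kinase, changed by -1.32 ± 0.34. Rab27a and Rab32, GTPases of secretory and lysosome-related organelles, changed by -0.72 ± 0.21 and -0.47 ± 0.12, and Pla2g4a, the phospholipase that frees arachidonic acid, by -0.44 ± 0.11. Ccl12, a chemokine, fell by 0.32 on the log2 scale, from 12.27 ± 0.17 to 11.95 ± 0.05, and Clec4a2, a C-type lectin, by 0.47. These were chosen after their values were seen, except Ccl12 and Clec4a2, which are on lists. The calls of Camk2b, Rab27a, Rab32, Pla2g4a, Ccl12 and Clec4a2 were each lost without sample 22 or 36 and without at least 2 further samples, with adjusted p of up to 0.137 for Clec4a2, 0.13 for Rab27a, 0.109 for Ccl12, 0.0935 for Rab32, 0.088 for Camk2b and 0.0753 for Pla2g4a. That of Fabp4 was lost without sample 22, 23 or 24 (up to 0.0622).

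Chromatin genes changed in both directions. Of 22 measured, Tet1, Sirt1 and Kdm6a fell and Dnmt1 rose, and the median was -0.03. Among all genes tested, 5.89% were called lower and 1.9% higher. Tet1, which oxidises 5-methylcytosine, was at 7.57, 7.28, 7.06 and 7.02 against 8.65, 8.95, 8.31 and 8.01, a change of -1.25 ± 0.25 (adjusted p = 0.0142) that held without each sample. Sirt1, a deacetylase, changed by -0.61 ± 0.15 and Kdm6a, an X-linked histone demethylase, by -0.55 ± 0.14. Dnmt1, the maintenance DNA methyltransferase, rose by 0.35 ± 0.09. The call of Sirt1 was lost without sample 22, 23 or 36 (up to 0.0711), that of Kdm6a without 22, 24, 34, 36 or 37 (up to 0.0817) and that of Dnmt1 without any sample but 25 or 35 (up to 0.0987). The Y-linked relative Uty fell by 0.79 on the log2 scale (± 0.18, adjusted p = 0.0199) and by 1.23 in zQ175 microglia. In WT microglia the Y-linked Kdm5d was at 8.55 ± 0.56 at 12 months and 9.07 ± 0.29 at 6 months, with overlap. Eif2s3y was at 11.21 and 11.16. A mean of Y-linked genes thus moved with age mostly through Uty and Kdm5d, and as a covariate it cannot be fully separated from age. With that mean as a covariate 109 genes were called in WT microglia, 25 higher and 84 lower, of which 86 were among the 951. Without sample 36 the adjusted p of Uty was 0.0553.

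Predicted genes left aside, the 10 largest falls were in genes of the class low in microglia. Thsd7a, a membrane protein of vessels and podocytes, was at 3.55, 5.25, 5.89 and 5.81 at 12 months and at 8.47, 9.14, 7.68 and 7.94 at 6 months, a change of -3.18 ± 0.44 (adjusted p = 0.00597). Synpr, a synaptic vesicle protein, changed by -3.04 ± 0.55 and was at 3.20, 3.63, 5.54 and 4.32 against 7.79, 7.11, 7.37 and 6.59. Otud7a, a deubiquitinase of neurons, changed by -2.83, Pak7, a neuronal kinase, by -2.50, and Ldb3, a Z-disc protein, by -2.37. Mreg, Nap1l3, Sowaha, Cdkl2 and Kif21a followed, with changes of -2.18, -2.16, -2.15, -2.12 and -2.08. The 12-month means of Thsd7a, Synpr, Pak7, Mreg, Sowaha and Cdkl2 lay below 5.4, so these genes were near the dim end of the arrays at 12 months. The calls of Cdkl2 and Kif21a were lost without some samples (22, 23, 24, 34, 35 and 36, up to 0.0949, and 22 and 23, up to 0.0593), while the other 8 held.

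The falls of smallest p, beside Plekhg1 and Thsd7a, were those of Arap2, Sgk2 and Kazn, each at an adjusted p of 0.00597. Sgk2, a serum- and glucocorticoid-related kinase, was at 6.10, 5.86, 6.79 and 6.56 at 12 months against 7.67, 7.71, 7.64 and 7.74, a change of -1.36 ± 0.19. Kazn, which encodes kazrin, a protein of cell junctions, changed by -1.59 ± 0.22. Their groups did not overlap, and all 3 calls held without each sample. Arap2 changed by -0.73 ± 0.10, but it was at 0.44 when the mean of its probe sets was used.

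Several genes of oligodendrocytes, the myelin-forming cells, fell. Of 12 measured oligodendrocyte markers, 6 fell (Ugt8a, Mog, Aspa, Fa2h, Cldn11 and Mag), none rose and 9 lay without overlap lower at 12 months, against 5.89% of genes called lower and 9.84% without overlap lower among all tested. The median was -1.17. Mog, a protein of the outer myelin surface, was at 8.38, 10.09, 10.06 and 9.74 at 12 months and at 10.89, 11.30, 10.94 and 11.18 at 6 months, a change of -1.51 ± 0.31 (adjusted p = 0.0148). Ugt8a, which makes myelin galactolipids, changed by -1.55 ± 0.32 and Cldn11, the tight junction protein of myelin, by -1.16 ± 0.26. Sox8, a transcription factor of oligodendrocytes that is not on the list and was chosen after its values were seen, was at 6.60, 8.64, 7.68 and 7.10 against 9.31, 9.63, 9.42 and 9.35, a change of -1.92 ± 0.34. Sample 34 was the lowest for each of these genes. Mbp (-0.23) and Mobp (0.55) did not pass the test. Mog and Sox8 held their calls without each sample, Fa2h and Mag lost theirs without sample 23, 24, 34 or 37 and Fa2h also without 22 or 25 (up to 0.112 and 0.0761), Aspa lost it without sample 23 or 24 (up to 0.0565), Ugt8a without sample 23 (0.0501) and Cldn11 without sample 22, 23 or 24 (up to 0.0604).

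The mean of the 12 oligodendrocyte markers was 9.07, 10.76, 10.51 and 10.33 in samples 34 to 37 and 10.92, 11.27, 11.12 and 11.15 in samples 22 to 25. The difference was -0.95 with all samples and -0.58 without sample 34, and the ages did not overlap in either case. The median of the list without sample 34 was -0.78, with 4 of 12 called, and the number called lay between 1 without sample 23 and 9 without sample 35. In WT microglia at 6 and 12 weeks the same mean was lower, 8.56 and 7.74, and in zQ175 microglia it ran from 11.01 to 11.22 at 12 months and from 10.79 to 11.41 at 6 months. With that mean added to the fit as a covariate, 0 genes were called by limma in WT microglia and 1629 had an unadjusted p below 0.05. That mean does not overlap between the WT ages and includes called genes, so this fit cannot separate it from age. Lists of medium spiny neurons, the main neurons of the striatum, and of oligodendrocyte precursors also lay lower without overlap: the mean of 15 medium spiny neuron genes ran from 5.85 to 6.10 against 6.30 to 6.56, with 1 of 12 tested called lower (Scn4b, -0.91 ± 0.26, a call lost without 6 of the samples, up to 0.126), and that of 9 oligodendrocyte precursor genes from 5.89 to 5.96 against 6.06 to 6.50. Astrocyte, endothelial and pan-neuronal lists overlapped between the ages. The part of oligodendrocyte RNA in the changes of other genes was not tested.

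**Figure D3:**
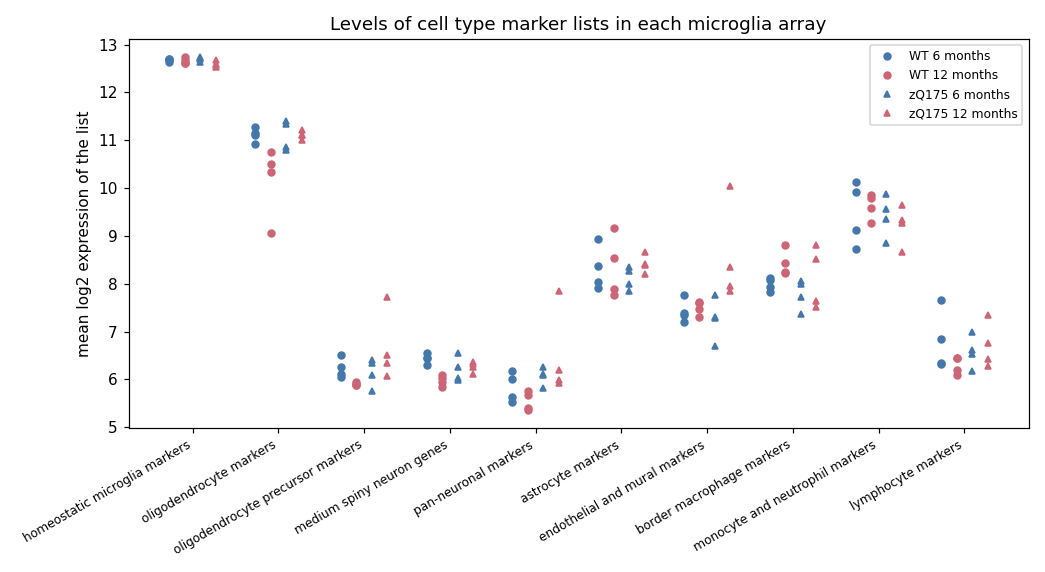
Mean log2 expression of 10 cell type marker lists on each microglia array, with WT as circles, zQ175 as triangles, 6 months in blue and 12 months in red. Homeostatic microglia markers lie within 12.61 to 12.75 in WT at both ages, while WT oligodendrocyte markers at 12 months (9.07 to 10.76) lie below those at 6 months (10.92 to 11.27).

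The genes that define microglia in the undisturbed brain did not pass the test. None of 22 homeostatic markers was called in either direction, and their median was 0.01. Among all genes tested 7.79% were called, and for a list of 22 genes a count of 0 is near that share. P2ry12, an ADP receptor that guides process movement, was at 12.56, 12.36, 12.53 and 12.68 against 12.95, 12.91, 12.68 and 12.55, a change of -0.24 ± 0.10 (adjusted p = 0.16) with overlap. Cx3cr1, the fractalkine receptor, was at 12.81, 12.73, 13.04 and 12.96 against 12.44, 12.69, 12.54 and 12.66, a change of 0.30 ± 0.09 (adjusted p = 0.0531) with no overlap. With the mean of its probe sets the log2 fold change of Cx3cr1 was 0.12 (adjusted p = 0.522), and it was called with quantile normalization (0.33, adjusted p = 0.0448) and without sample 25 or 35. Sall1, a transcription factor of microglial identity, had -0.32 ± 0.12 (adjusted p = 0.1).

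Housekeeping and degradative gene groups gave few or no calls. Calls were 0 of 27 lysosome genes (median 0.05), 0 of 35 oxidative phosphorylation genes (-0.01), 0 of 24 cytosolic ribosomal proteins (median 0.00 to 2 decimals), 0 of 12 MHC class I genes (0.02) and 0 of 6 MHC class II genes (0.03), where 7.79% of all genes were called. Of 27 proteasome subunits, 1 fell (Psmb7, -0.41 ± 0.09). Of 21 proliferation genes, Top2a, a topoisomerase of dividing cells, rose by 0.81 ± 0.22 and Mcm4, a replication helicase subunit, fell by 0.68 on the log2 scale, with a median of 0.21. Of 23 inflammatory cytokine and NF-kB target genes, Cxcl16 rose and Ccl12 fell, with a median of -0.03. Other lists held 1 to 3 called genes or none: Megf10, a phagocytic receptor, among 17 Fc and phagocytic receptors (-1.55), Slc16a1, a lactate transporter, among 19 glycolysis genes (-0.65), Gclm among 19 genes of iron and oxidative stress (-0.99), Zmat3 among 12 senescence genes and Ccr6 and Il13ra1 beside Ccr2 among 21 chemokine and cytokine receptors. Megf10 and Slc16a1 held their calls without each sample, Gclm lost it without sample 23 (0.0534), and Zmat3, Ccr6 and Il13ra1 lost theirs without at least 6 of the samples (up to 0.12, 0.112 and 0.0859). Of 12 purinergic receptors and channels and of 21 TGF-beta and transcription factor genes none was called. Of 17 clock genes, Tef rose by 0.35 ± 0.09 and Nr1d2 fell by 0.35 on the log2 scale, both by a like amount in zQ175 microglia (0.32 and -0.33). Each of these 7 called genes lost its call without sample 36 among others, with adjusted p up to 0.101 for Top2a, 0.0843 for Mcm4, 0.0859 for Tef, 0.0773 for Nr1d2 and 0.0658 for Psmb7.

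The zQ175 microglia gave another set of pools of the same ages. In them 1430 genes changed (11.7%), 565 up (4.63%) and 865 down (7.09%). That count fell to 852, 825, 709, 821 and 734 without sample 26, 28, 29, 32 or 33. Of the 232 rises of WT microglia, 114 were also called higher in zQ175 microglia (49.1% of the WT rises and 20.2% of the zQ175 rises), 224 had the same sign and none was called lower. Of the 719 falls, 337 were also called lower (46.9% and 39.0%), 645 had the same sign and none was called higher. The share of all genes tested that had the same sign is not given here. No sample is shared by these comparisons, though both use 1 estimate of each gene's spread. The bioB control differed between the ages in both genotypes, so a change common to them cannot be told apart from array handling. Over all 12201 genes the 2 changes correlated with r = 0.478, as a description, and the value was 0.634 over genes high in microglia, 0.731 over those between and 0.418 over those low in microglia. Apoe rose by 1.65 ± 0.15 in zQ175 against 0.92 in WT, and Rab7b, Ankrd11, Acin1, Ifngr2 and Hspb1 rose in both. P2ry10b, Egr3 and Klrd1 fell in both. Among the WT falls of smallest p, Thsd7a (-0.64, adjusted p = 0.352), Plekhg1 (0.13, 0.757) and Sgk2 (-0.30, 0.319) were not called in zQ175 microglia. The class low in microglia had a median change of 0.15 in zQ175 against -0.15 in WT. For the class high in microglia the medians were 0.05 and 0.08, and for the genes between -0.01 and 0.01.

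The list counts of the genotypes stood apart, but the test of the difference called no gene. In zQ175 microglia, 12 of 25 disease-associated genes rose (median 0.52) and 13 of 24 interferon-stimulated genes rose (median 0.58), where WT had 3 and 0. Among all genes tested, 4.63% were called higher in zQ175 microglia and 1.9% in WT microglia. Itgax rose by 1.57 in zQ175 against 0.70 in WT, Axl by 1.71 against 0.64, and Gpnmb, a lysosomal membrane protein, by 3.002 against -0.25. Irf7 rose by 1.06 against 0.27. Of the 12 oligodendrocyte markers, 0 were called in zQ175 (median -0.06), where WT had 6, and the shares over all genes were 11.7% and 7.79%. For the difference between the age changes, limma called 0 of 12201 genes, with 841 at an unadjusted p below 0.05. The smallest p were those of Mamdc2 (4.17 ± 0.66, adjusted p = 0.137), a gene near the dim end in WT at both ages, Plekhg1 (2.01 ± 0.33, 0.137), Cd72 (1.495 ± 0.27, 0.228), Retnla (-1.85 ± 0.35, 0.26) and Efna5 (1.77 ± 0.34, 0.26). The zQ175 sample 31 stood apart in markers of other cells, with an endothelial mean of 10.04, and without it WT microglia had 907 calls and zQ175 microglia 970.

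**Figure D4:**
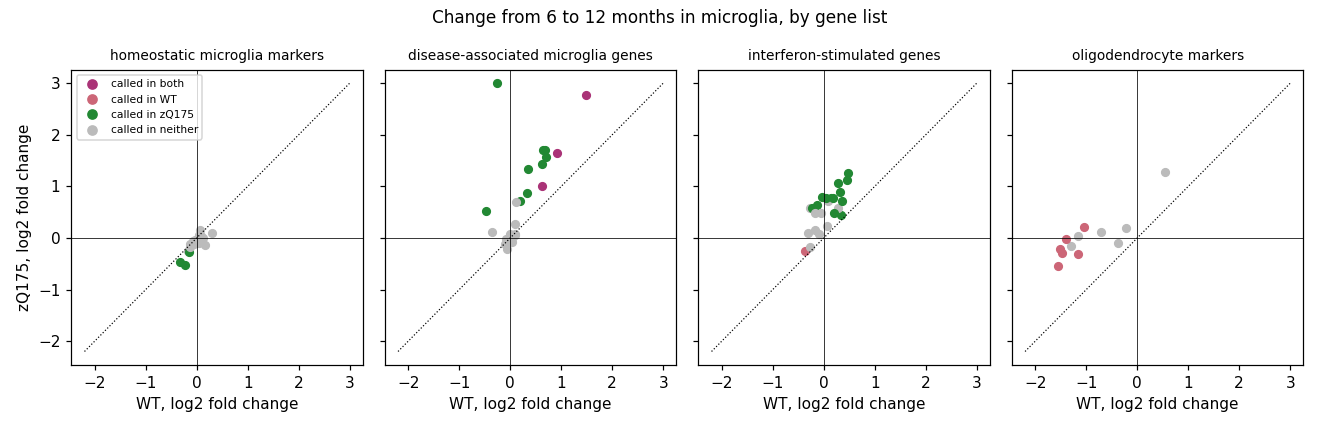
Log2 fold change from 6 to 12 months in WT microglia (horizontal axis) and zQ175 microglia (vertical axis) for each measured member of 4 lists, coloured by where it was called, with equal change as a dotted line. The 12 disease-associated and 13 interferon-stimulated genes called in zQ175 lie above the line, homeostatic genes lie near the origin and the 12 oligodendrocyte markers lie left of the line.

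The other WT fractions of the same ages were fitted apart from the microglia, each together with the zQ175 arrays of that fraction, which share 1 estimate of the spread. Among these, the zQ175 negative arrays of 12 months had a Gapdh 3' minus 5' difference of 1.67 ± 0.82. It was 0.82 ± 0.05 in the WT negative arrays of that age. The part of this difference in the calls of the negative fraction was not tested. WT astrocytes had 494 calls (3.99%; 122 up, 0.985%, and 372 down, 3%), and the WT negative fraction had 8 (0.0634%), with 1138 at an unadjusted p below 0.05. The astrocyte count was 70, 83, 110, 213 and 329 without sample 23, 24, 34, 35 or 22 and 1016 without sample 25, and that of the negative fraction lay between 0 (without sample 22 or 23) and 21 (without sample 24). Of the 232 rises of WT microglia, 214 were tested in WT astrocytes, where 2 were called lower (Dennd1c and Kif22, the second of which was singled out after its values were seen) and 38 were called higher, among them Ankrd11, Acin1, Rnf166 and Ifngr2 (0.78, adjusted p = 0.00755). Of the 719 falls, 703 were tested there and 144 were called lower. The sign was the same in astrocytes for 672 of the 703 falls and for 189 of the 214 rises. In the WT negative fraction it was the same for 611 of 708 falls and for 188 of 220 rises. For these sign counts too, the share over all genes tested is not given here. The bioB control differed between the ages in these fractions as well. The age changes of the fractions differed by the test of the difference for 3 genes against astrocytes (0.0239% of 12573 tested). Plekhg1 changed by -1.88 in microglia and -0.05 in astrocytes (difference -1.83 ± 0.27, adjusted p = 0.012). Dennd1c rose by 1.33 in microglia and fell by 0.78 on the log2 scale in astrocytes (difference 2.11 ± 0.32, adjusted p = 0.012). Gm15666 was at 5.58 ± 0.23 and 5.59 ± 0.23 in microglia at 12 and 6 months and rose by 1.17 in astrocytes (difference -1.18 ± 0.20, adjusted p = 0.03).

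Against the negative fraction 11 genes differed (0.0875%), and 10 of the differences were negative. With the sample number as a block, so that fractions of the same number are compared, 38 genes differed, 10 of the 11 among them. Cobll1 changed by -1.56 in microglia and -0.24 in the negative fraction (difference -1.33 ± 0.20, adjusted p = 0.00584), and Elovl7, a fatty acid elongase, by -1.58 and 0.25 (difference -1.83 ± 0.27, adjusted p = 0.00584). Plekhg1 and Gng11, a G protein gamma subunit, differed by -1.81 ± 0.27 and -1.12 ± 0.17. Cxcl10, an interferon-induced chemokine, was at 9.79 ± 0.20 against 9.96 ± 0.09 in microglia and 1.05 higher at 12 months in the negative fraction, without passing the test there, a difference of -1.23 ± 0.21. Each of Cobll1, Elovl7, Plekhg1 and Gng11 was higher in the other fractions than in microglia: Plekhg1 was at 7.01 ± 0.44 and 8.89 ± 0.17 in microglia at 12 and 6 months, and at 11.31 and 11.37 in astrocytes. Without sample 23 of each fraction, neither difference called a gene (538 and 719 at an unadjusted p below 0.05), and the count against the negative fraction was 1 without sample 24, 23 without sample 25 and 21 without sample 34. Against astrocytes it was 1 without sample 36 or 37.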

How the data were processed

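Values of all 111 arrays were the log2 expression values that the authors deposited; per the submitters' processing notes RMA, affy and limma were used, with no versions stated. They ran from 1.502 to 14.26. Of 45101 probe sets, 34958 had 1 gene symbol in the platform annotation, 932 several and 9211 none. Each of 18194 genes was represented by its probe set of highest average value across the 111 arrays. Genes with a mean below the 40th percentile (5.4) over the arrays of a fit were left out. limma 3.58.1 in R 4.3.3 (lmFit, eBayes, Benjamini-Hochberg) was run on the 16 WT and zQ175 microglia arrays of 6 and 12 months. The astrocyte and negative fractions were each fitted in the same way, on their WT and zQ175 arrays of those ages. The differences between fractions were fitted on the WT arrays alone. The method was tested on simulated data. Arrays give no read depth; their number, 4 per age, limits the precision.

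The genes named were drawn from the 10 largest non-overlapping changes and the 5 of smallest p in each direction, up to 4 members of smallest p per list, fixed markers and the 5 of smallest p per difference, with predicted genes left out unless among the smallest p; others are said to be chosen after their values were seen, and non-called list members are given as values. The members and the 40 lists (765 genes, 82 named by no probe set) were chosen with earlier results of these data known. Alternatives covered the probe set rule, the filter, the arrays fitted, quantile normalization, covariates, array weights, eBayes settings, a replicate block and the omission of each sample.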

Additional observations from a re-analysis of the deposited data

Results flagged for a closer look

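In 12 of 266 groups of 4 arrays tested (genes named here and cell type lists), 1 array lay beyond Dixon's 95% critical value; chance flags about 1 in 20 groups, so this number is near what chance gives. At 6 months, sample 23 stood apart for Cldn11 (11.37, the others 11.17 to 11.21), Csf1r (13.36, the others 13.66 to 13.70), Klrd1 (10.33, the others 9.82 to 9.91) and Slc1a2 (9.64, the others 9.02 to 9.10). Sample 25 stood apart for Trpc2 (6.54, the others 5.403 to 5.59) and sample 22 for Uty (8.59, the others 7.70 to 7.78). At 12 months, sample 34 stood apart for Fa2h (7.35, the others 9.26 to 9.55), Ldb3 (4.004, the others 5.85 to 6.01) and Sirt1 (9.84, the others 9.62 to 9.64). Sample 35 stood apart for Il13ra1 (11.64), sample 36 for Tef (10.83) and sample 37 for Pla2g4a (10.31, the others 10.02 to 10.07).

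The change with age differed between WT microglia and WT astrocytes, by limma's test of the difference, for Plekhg1 (-1.83), Dennd1c (2.11) and Gm15666 (-1.18). It differed between WT microglia and the WT negative fraction for Cobll1 (-1.33), Elovl7 (-1.83), Plekhg1 (-1.81), Gng11 (-1.12), Cxcl10 (-1.23), Sema7a (-1.08), Tmcc2 (-1.20), Synm (-1.88), Egln3 (1.04), Cd59a (-1.18) and St6galnac3 (-1.74), each on the log2 scale.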

How the results depend on the processing

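Of 102 called genes among the 131 followed through the alternatives, 101 kept their sign under each of them, and 36 were called without each WT sample in turn. The exception was Arap2, at -0.73 as reported and 0.44 with the mean of its probe sets. The count of WT microglia calls (951) was 8 with only the 8 WT arrays, 109 with a Y-linked mean as covariate, 2138 with array weights and 0 with the oligodendrocyte marker mean as covariate (limma, 1629 at an unadjusted p below 0.05; this covariate, the fit without zQ175 sample 31 and a class difference of 2 units were chosen after seeing the data). It ran from 268 to 1508 when 1 WT sample was left out. The zQ175 count (1430) was 936 with the probe set mean and 0 with the Y-linked covariate (1818 at an unadjusted p below 0.05), and 709 to 1300 with 1 sample left out. The genotype difference ran from 0 to 1 call, WT astrocytes from 70 to 1016, and the WT negative fraction (8) from 0 to 21, with 0 for the probe set mean (1099 unadjusted) and 14 without the filter. The difference of microglia from astrocytes ran from 0 to 4 and that from the negative fraction from 0 to 23. With a replicate block these were 4 and 38; same-numbered samples of different fractions correlated at 0.0126 to 0.242 and -0.00459 to 0.346, so not every pair passed 0.1. In the WT arrays of weeks, the same numbers had low Xist (3) or low Eif2s3y (12 and 20) in all 3 fractions. This is a hint from the data that a number marks a pool. The fit without the block was kept as the reported one, and it treats same-numbered samples of different fractions as independent.

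Genes that were not called changed sign. With the Y-linked covariate the values were -0.040 for Cd72, 0.083 for Gm15666, -0.25 for Itgam, -0.062 for Retnla, -0.43 for Slc1a2 and -0.079 for Trem2, and Trem2 was at -0.014 with the probe set mean. Mamdc2 was at 0.28 with array weights and 0.61 with the oligodendrocyte covariate. With 1 sample left out, Csf1r ran from -0.024 to 0.090, Gm15666 from -0.12 to 0.060, Mamdc2 from -0.31 to 0.23, Retnla from -0.062 to 0.28 and Slc1a2 from -0.17 to 0.40. The cause of these shifts was not tested.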
